A study of Peromyscus leucopus and Peromyscus maniculatus with 24 samples.

Results

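The collagen genes of the deer mouse brain were taken by symbol, as every row named Col, a type number, the letter a and a chain number in the count tables of the 2 species. This gave 42 of the 25252 genes listed for P. leucopus and 41 of the 16899 named genes listed for P. maniculatus. Together these are 44 of 28586 symbols, of which 39 stand in both tables. Col7a1, Col19a1 and Col20a1 were listed for P. leucopus alone, and Col6a4 and Col22a1 for P. maniculatus alone. The P. leucopus (LL stock) and the P. maniculatus bairdii (BW stock) were each represented by 6 young and 6 old animals, with one library of brain RNA from every animal. Both stocks are outbred colonies kept in captivity, and no animal carried a transgene or received a treatment that the labels name. Young animals were 7 months old, old P. leucopus 28 months old and old P. maniculatus between 25 and 29 months old. The comparison asks whether the genes of the extracellular matrix scaffold were expressed at other levels in older brains, and whether the species differed in this.

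Collagens are secreted or membrane-bound proteins in which 3 alpha chains wind into a triple helix. Fibrillar collagens form the banded fibres of meninges and vessel walls, whereas type IV collagen forms the sheet-like network of basement membranes under endothelium and around the brain surface. FACITs (fibril-associated collagens with interrupted triple helices) sit on the surface of fibrils, type VI collagen makes beaded filaments, and the transmembrane collagens are anchored in the cell membrane and can be shed. In the brain most fibrillar collagen is made by fibroblasts of the meninges and vessels and most type IV collagen by vascular cells, while some FACIT and transmembrane collagens are made by glia and neurons.

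Libraries of P. maniculatus held 5766964 to 8804417 counts on named genes, and those of P. leucopus held 10241267 to 19461818. Levels are given as CPM, the counts for every 1000000 counts on named genes, or as CPM per kilobase of gene model where genes are compared. Gene models of P. maniculatus are mostly coding length (91.1% of lengths are multiples of 3, against 40.5% in P. leucopus), so levels were not compared between the species. The brain label was checked against marker lists, and neuronal markers summed to between 4745 and 9601 CPM in every animal. The libraries differed in other markers. Oligodendrocyte markers summed to between 14908 and 19768 CPM in young P. leucopus 1 to 4, but to between 2678 and 7513 CPM in the other 8 P. leucopus. Markers of cerebellar granule and Purkinje cells summed to 1567 and 1065 CPM in old P. leucopus 4 and 6, to 96.9 CPM in young P. leucopus 3, to 1203 CPM in young P. maniculatus 3 and to 221 CPM in old P. maniculatus 2, and to at most 31 CPM in the others. Choroid plexus markers reached 10205 CPM in young P. leucopus 3. They summed to 729, 594 and 889 CPM in young P. leucopus 2, 4 and 6, to 36.1 and 47.7 CPM in young 1 and 5, and to 17.1 to 166 CPM in the old ones. Of the 8 tested, 6 were lower in old P. leucopus at an unadjusted p under 0.05 by edgeR, beside 10.4% of all tested genes. The libraries of old P. maniculatus 3 and 4 were nearly identical, with a chi-square per gene of 1.46 against 8.82 to 99.8 for the other pairs of that species. They were counted as 2 animals, and as 1 in an alternative. In bulk tissue, fewer cells of a type and less RNA in each cell cannot be told apart.

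Col9a3 had the highest level per length of all collagens in both species. It encodes one of the 3 chains of the FACIT collagen IX, best known from cartilage. In P. leucopus its level was 30.2 ± 12.1 CPM per kilobase (SD, n = 12 animals), followed by Col9a2 with 16.3 ± 8.05, Col4a2 with 8.42 ± 2.11, Col23a1 with 6.06 ± 2.34 and Col4a1 with 5.93 ± 1.48. The third chain of the same trimer, Col9a1, had only 0.193 ± 0.184 CPM per kilobase in P. leucopus and 0.697 ± 0.463 in P. maniculatus. In P. maniculatus the order of levels was Col9a3 with 37.7 ± 6.72 CPM per kilobase (SD, n = 12), Col4a2 with 15.6 ± 6.01, Col9a2 with 11.7 ± 5.68, Col5a1 with 10.9 ± 10.1 and Col16a1 with 10.1 ± 4.55. The last 4 of these differed by less than the SD of Col4a2. Of the 10 highest collagens of each species 8 were the same, and across the 39 shared genes the Spearman correlation of the mean levels was 0.908. Genes are not independent replicates, so this describes the order and has no test. At the other end, Col6a6, Col6a5 and Col28a1 had means of 0.055, 0.073 and 0.092 CPM per kilobase in P. leucopus, and Col10a1, a cartilage collagen, had no counts in 3 of 12 P. maniculatus.

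**Figure D1:**
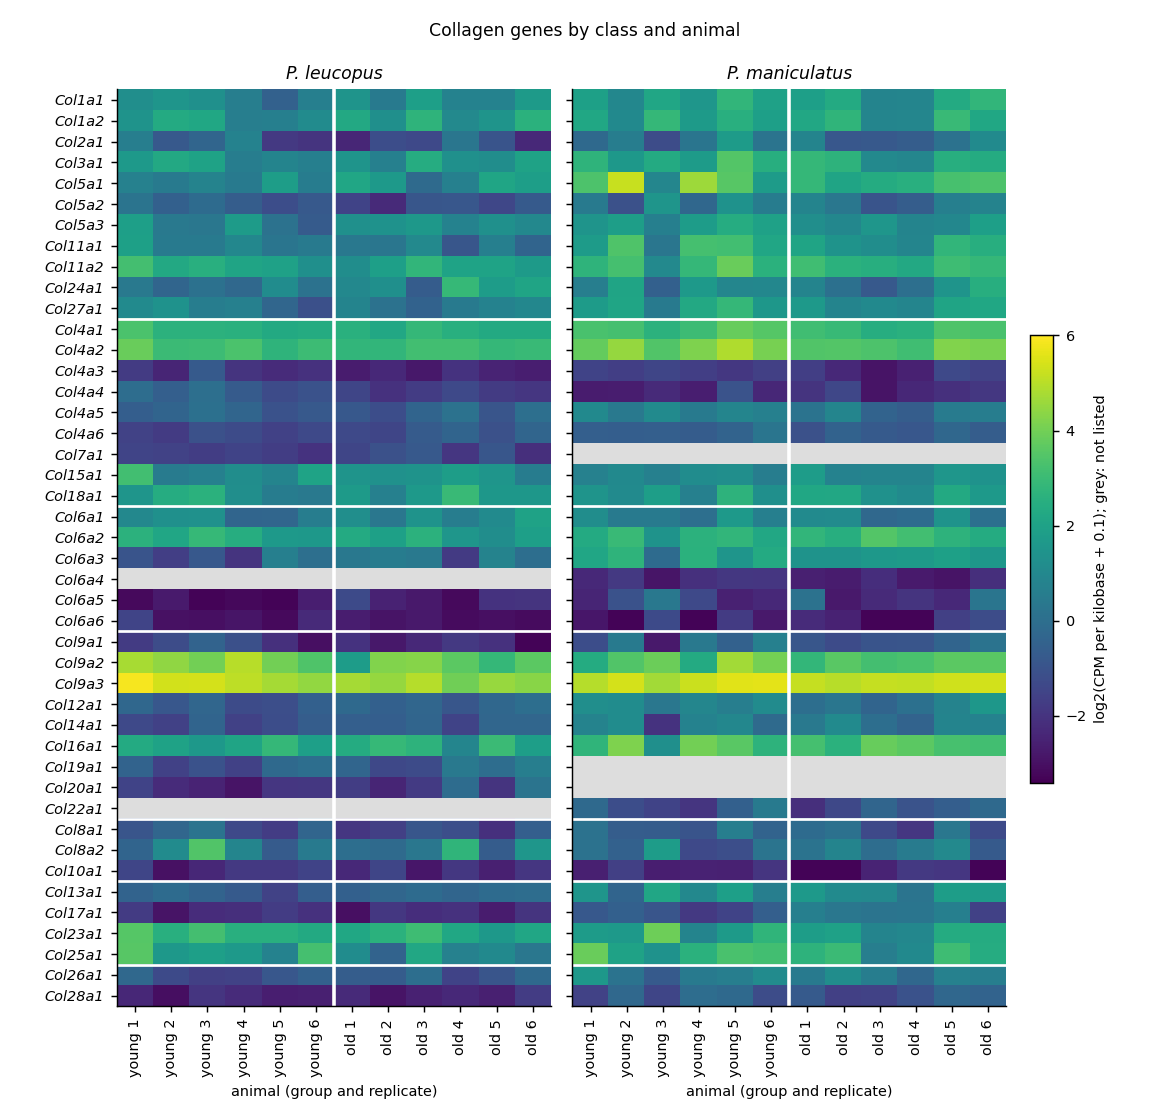
Level of each collagen gene in each animal, as log2 of CPM per kilobase of gene model plus 0.1, for P. leucopus (left) and P. maniculatus (right), with white lines between age groups and between classes (from the top: fibrillar, basement membrane, type VI, FACIT, short-chain, transmembrane, other) and grey for genes not listed. Col9a3 is the brightest row in both species, with means of 30.2 and 37.7 CPM per kilobase, and Col5a1 stands out in young P. maniculatus 2 and 4.

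No collagen gene differed between old and young animals past an adjusted p of 0.05 in either species (edgeR's quasi-likelihood test with Benjamini-Hochberg adjustment over all genes tested). The count was 0 of the 37 collagens tested in P. leucopus (percent of all tested genes called: 0) and 0 of the 34 tested in P. maniculatus (percent called: 0). The remaining 5 and 7 collagens had too few counts for the test. At an unadjusted p under 0.05, 3 collagens were higher in old P. leucopus, beside 8.32% of all tested genes, and 5 were lower, beside 10.4%. These 8 are 21.6% of the tested collagens, against 18.7% of all genes in either direction. In P. maniculatus 1 collagen was higher (background 4.94%) and 1 lower (background 5.39%), or 5.88% of the collagens against 10.3% of all genes. The share of collagens thus lay near that of all genes in P. leucopus. In P. maniculatus it rests on 2 genes, and both shares count the near-identical old libraries as 2 animals. With these libraries summed, the share was 1 of 36 collagens, beside 5.26% of all genes. Without the 2 P. maniculatus over 50 CPM of cerebellar markers it was 6 of 34 collagens, beside 9.59% of all genes.

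The median log2 fold change of old against young was 0.07 over the 37 collagens of P. leucopus, beside 0.02 over all genes tested. In P. maniculatus it was -0.21 over 34 collagens, beside 2.0e-05 over all genes. The fold change was positive for 19 of 37 collagens in P. leucopus (background 52.2%) and for 10 of 34 in P. maniculatus (background 50%). The latter count moved between 7 and 17 when single animals were left out. Summed over all collagens, the level was 619 ± 169 CPM in young and 529 ± 65.7 CPM in old P. leucopus, and 752 ± 211 CPM in young and 608 ± 127 CPM in old P. maniculatus (SD, n = 6 each). The groups overlapped in both species.

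Many of the P. leucopus values were different in a fit without the 4 young animals rich in oligodendrocyte markers. No other set of 4 young animals was left out, and sign changes were not counted over all genes. Whether these animals in particular made the difference was thus not tested. Without them, with 2 young against 6 old animals, 10 of the 37 collagens changed sign, 24 of 39 tested were positive (background 53.7%), and the median log2 fold change was 0.34 over the collagens and 0.02 over all genes. None of the 8 collagens above kept an unadjusted p under 0.05 in that fit. The 3 that had one were Col5a3, Col18a1 and Col27a1, all higher in old animals, beside 3.46% of all genes in either direction, each with an adjusted p of 0.999 by edgeR. With all animals, 18.7% of all genes had an unadjusted p under 0.05. Without the 3 animals over 50 CPM of cerebellar markers, 3 collagens changed sign, and Col4a3, Col4a4 and Col5a2 kept an unadjusted p under 0.05. In all, 7 of 37 collagens had such a p in that fit, beside 2691 of 14969 genes. The others, all higher in old animals, were Col7a1, Col14a1, Col12a1 and Col16a1. Their log2 fold changes were 0.89, 0.97, 0.58 and 0.52. No collagen passed the adjusted threshold by edgeR in that fit.

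**Figure D2:**
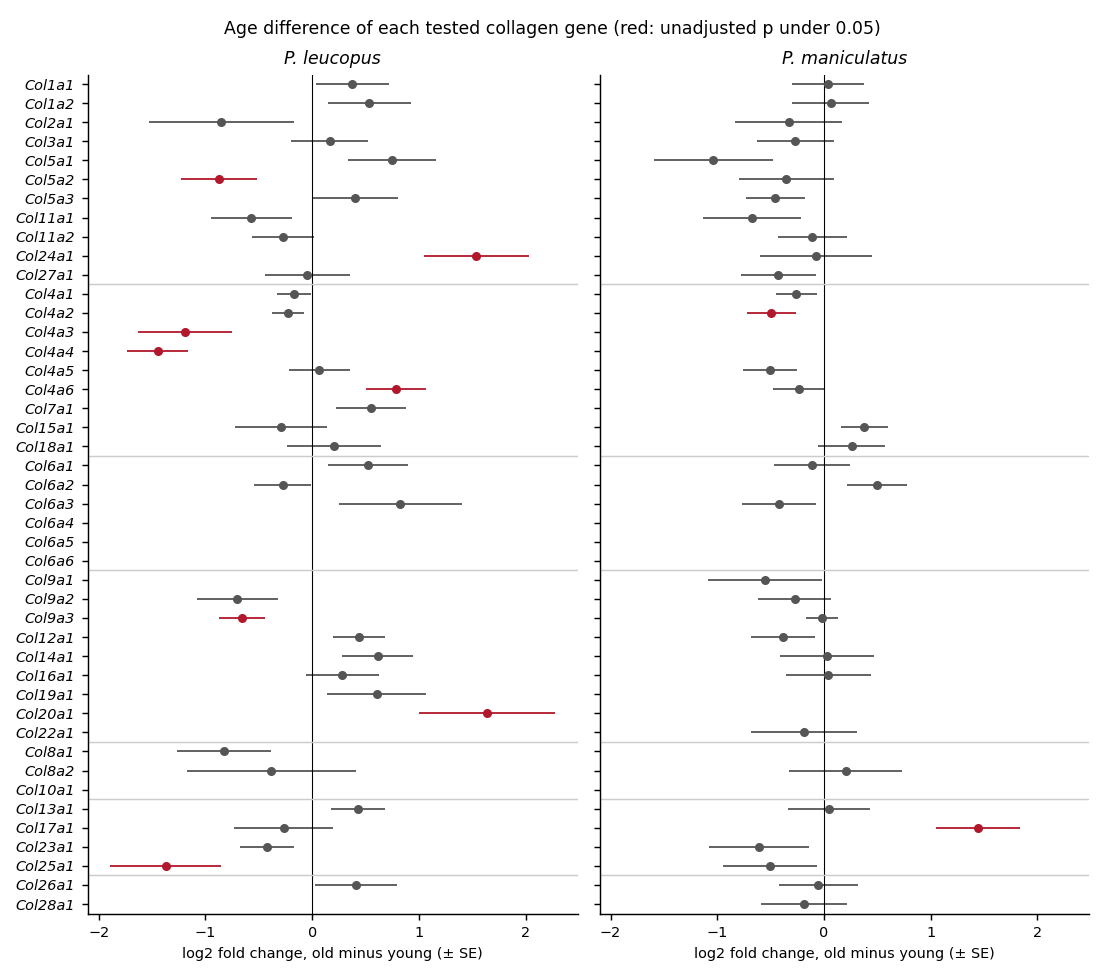
Log2 fold change of old against young animals for each tested collagen gene, with the standard error of the edgeR fit as a bar, in P. leucopus (left) and P. maniculatus (right), grey lines separating the classes and red marking an unadjusted p under 0.05. The 8 red genes in P. leucopus lie on both sides of 0, and Col17a1 (1.44) and Col4a2 (-0.50) are the 2 red genes in P. maniculatus.

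All 11 fibrillar collagens were tested in both species. Per length the highest of them was Col11a2 in P. leucopus, with 4.47 ± 1.91 CPM per kilobase, and Col5a1 in P. maniculatus, with 10.9 ± 10.1 (SD, n = 12 each). The chains of types I and III, which make up most fibres of the body, were lower, and their levels overlapped between the age groups. Col1a1 ranged from 3.61 to 16.3 CPM (median 11.1) in young and from 7.57 to 21.3 CPM (median 12.5) in old P. leucopus. The range in P. maniculatus was from 8.10 to 29.6 CPM (median 16.7) in young and from 7.40 to 29.5 CPM (median 18.7) in old animals. The groups overlapped widely, and the log2 fold changes were 0.38 ± 0.344 (SE) and 0.04 ± 0.337. Without the 4 young P. leucopus rich in oligodendrocyte markers the former was 1.12 ± 0.502 (adjusted p = 0.999 by edgeR).

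Col1a2, the partner chain in type I trimers, had means of 12.2 ± 6.55 CPM in young and 17.3 ± 8.43 CPM in old P. leucopus (SD, n = 6 each). In P. maniculatus its means were 17.9 ± 7.59 and 18.4 ± 9.92 CPM. Col3a1, the type III chain of extensible tissues, had means of 14.8 ± 7.74 and 16.3 ± 7.41 CPM in young and old P. leucopus. Its means in young and old P. maniculatus were 25.2 ± 12.8 and 20.4 ± 9.96 CPM. All of these differences were smaller than the SD between animals. Without the oligodendrocyte-rich young P. leucopus the fitted log2 fold changes in that species were 1.15 ± 0.521 for Col1a2 and 0.87 ± 0.438 for Col3a1, against 0.54 and 0.16 with all animals. Per length, Col1a2 stood to Col1a1 as 1.65 ± 0.389 to 1 in P. leucopus and as 1.14 ± 0.273 to 1 in P. maniculatus (SD of the ratio, n = 12). The protein trimer is known to hold fewer Col1a2 than Col1a1 chains.

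Col24a1, a minor fibrillar collagen, had the largest fitted increase among the fibrillar genes of P. leucopus. Young animals 1 to 6 had 8.31, 4.71, 6.69, 5.20, 14.7 and 6.81 CPM, and old animals 1 to 6 had 13.02, 16.1, 3.67, 50.3, 23.1 and 28.5 CPM. The groups overlapped, since old animal 3 was the lowest of all 12 and young animal 5 stood above old animal 1. On the log2 scale the difference was 1.54 ± 0.495 (SE; adjusted p = 0.150 by edgeR). Old animals 4 and 6, with the highest levels, were also the animals with 1567 and 1065 CPM of cerebellar markers. All 3 cerebellar markers were higher in old than in young P. leucopus at an unadjusted p under 0.05. Without the 3 P. leucopus over 50 CPM of these markers the log2 fold change of Col24a1 was 0.85 ± 0.501 (adjusted p = 0.372 by edgeR). In young P. maniculatus 3, the animal with 1203 CPM of cerebellar markers, Col24a1 was at 3.07 CPM, the lowest of its group. The part of brain region in the difference was not tested further. DESeq2 gave Col24a1 an adjusted p of 0.0335 with all animals. It called 2 of 42 collagens of P. leucopus (background 5.51%) and 0 of 41 of P. maniculatus (background 0.143%).

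Col5a1, a chain of type V collagen that regulates the diameter of type I fibrils, varied 20.5-fold between the highest and the lowest P. maniculatus. Young animals 1 to 6 had 56.6, 202, 9.87, 136, 64.0 and 18.1 CPM. The old animals lay between 22.97 and 56.5 CPM, inside the young range. The fitted log2 fold change was -1.04 ± 0.559 (adjusted p = 0.473 by edgeR), and it was -0.52 without young animal 2. In P. leucopus Col5a1 ranged from 8.55 to 24.2 CPM in young and from 5.51 to 30.0 CPM in old animals, with a log2 fold change of 0.75 ± 0.413. Col5a2, another type V chain, was at 3.34 ± 1.33 CPM in young and 1.77 ± 0.804 CPM in old P. leucopus, with a log2 fold change of -0.87 ± 0.353 (adjusted p = 0.215 by edgeR). Col5a2 and Col3a1 lie tail to tail, with 27780 bases between them in P. maniculatus and 27732 in P. leucopus.

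The other fibrillar genes gave no unadjusted p under 0.05 in either species. Col11a1 and Col11a2, chains of type XI collagen, had log2 fold changes of -0.57 and -0.28 in P. leucopus and of -0.67 and -0.11 in P. maniculatus. Col27a1, a minor fibrillar collagen, was at -0.05 and -0.43, Col2a1, the main collagen of cartilage, at -0.85 and -0.33, and Col5a3 at 0.40 and -0.46. Without the oligodendrocyte-rich young P. leucopus, Col5a3 was at 1.56 ± 0.347 in that species, the lowest p of the collagens in that fit, Col27a1 at 1.25 ± 0.472 and Col2a1, with its sign turned, at 1.24 ± 0.948 (each with an adjusted p of 0.999 by edgeR). Over the 11 genes the median log2 fold change was -0.33 in P. maniculatus, where 9 were negative, and 0.16 in P. leucopus. The summed level of the class was 278 ± 116 CPM in young and 199 ± 71.4 CPM in old P. maniculatus, a difference within the SD of the young animals.

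The basement membrane collagens comprised the 6 type IV chains with Col15a1 and Col18a1 and, in P. leucopus, Col7a1. The type IV genes lie in head-to-head pairs. Col4a1 and Col4a2 start 159 bases apart in P. leucopus and 857 bases apart in P. maniculatus, Col4a3 and Col4a4 619 and 12881 bases, and Col4a5 and Col4a6 1384 and 1947 bases. The gene models of P. maniculatus are mostly coding length, and the part of untranslated ends in its longer distances was not tested. In the HU_Pman_2.1 assembly Col4a2 lies on chromosome 17 from 57112918 to 57253186 and Col4a1 on the opposite strand from 57254044 to 57372129.

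Col4a1 and Col4a2 form the network present in every basement membrane. In P. leucopus, Col4a1 ranged from 31.2 to 64.0 CPM in young and from 29.7 to 45.9 CPM in old animals, and Col4a2 from 41.1 to 90.3 and from 42.7 to 55.6 CPM. The log2 fold changes were -0.17 ± 0.160 and -0.22 ± 0.150, and without the oligodendrocyte-rich young animals they were 0.11 and 0.039. In P. maniculatus Col4a1 ranged from 30.5 to 70.0 CPM in young and from 26.9 to 53.0 CPM in old animals, with a log2 fold change of -0.26 ± 0.191. Col4a2 was the one collagen of P. maniculatus with a lower mean at an unadjusted p under 0.05. Its young animals 1 to 6 had 69.9, 117, 55.7, 92.01, 149 and 85.6 CPM, and its old animals had 55.9, 57.2, 52.3, 43.9, 95.1 and 88.1 CPM. Old animals 1, 2, 5 and 6 lay within the young range, and the near-identical old animals 3 and 4 lay below it. Young animal 3 lay among the low old animals. The log2 fold change was -0.50 ± 0.231 (adjusted p = 0.467 by edgeR), and it was -0.45 ± 0.245 with the near-identical old libraries summed, which leaves 5 old animals and no longer gave an unadjusted p under 0.05, and -0.57 ± 0.226 without the 2 cerebellar-rich animals, which did. Endothelial markers summed to between 272 and 504 CPM in young and between 339 and 516 CPM in old P. maniculatus, and 0 of the 10 tested had an unadjusted p under 0.05. Per length, Col4a2 stood to Col4a1 as 1.75 ± 0.362 to 1 in P. maniculatus and as 1.43 ± 0.165 to 1 in P. leucopus (SD, n = 12). The protein trimer is known to hold more Col4a1 than Col4a2 chains.

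Col4a4 had the lowest p of all collagens. It encodes a chain of the alpha3-alpha4-alpha5 network known from the glomerular basement membrane, and loss of these chains causes Alport syndrome. In P. leucopus, young animals 1 to 6 had 9.26, 6.24, 9.99, 5.48, 3.45 and 4.10 CPM, and old animals had 2.85, 1.47, 2.19, 3.24, 2.105 and 1.76 CPM. The groups did not overlap, which held for 1 of 37 collagens, beside 0.479% of all tested genes that were lower without overlap. No collagen of P. leucopus was higher without overlap (background 0.371%), and in P. maniculatus none was higher (0.275%) or lower (0.105%) without overlap. The log2 fold change was -1.45 ± 0.288 (adjusted p = 0.101 by edgeR). DESeq2 gave an adjusted p of 0.000661.

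The 4 young animals with the most Col4a4 were those with between 14908 and 19768 CPM of oligodendrocyte markers, and the 2 other young animals lay just above the old ones. All 6 markers of that list were lower in old P. leucopus at an unadjusted p under 0.05, with summed levels of 5194 to 19768 CPM in young and 2678 to 7513 CPM in old animals. Without those 4 young animals the log2 fold change of Col4a4 was -0.76 (adjusted p = 0.999 by edgeR, with 2 against 6 animals). Their part in the difference was not tested further. Col4a4 and Col9a3, described below, correlated across the 12 P. leucopus (r = 0.846). This pair was not among the relations chosen for testing. Both genes were highest in those 4 young animals, so r is a description without a test.

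Col4a3, whose chain assembles with that of Col4a4, was at 1.51, 0.672, 3.89, 1.19, 0.863 and 1.07 CPM in young P. leucopus 1 to 6 and at 0.439, 0.772, 0.353, 1.13, 0.648 and 0.488 CPM in the old animals. It was low in all animals but young animal 3, which also held 10205 CPM of choroid plexus markers. Its log2 fold change was -1.19 ± 0.445 (adjusted p = 0.190 by edgeR), and -0.68 (adjusted p = 0.399) without young animal 3. In P. maniculatus neither gene had enough counts for the test. There Col4a3 ranged from 0.879 to 1.33 CPM in young and from 0.168 to 1.48 CPM in old animals, and Col4a4 from 0.278 to 2.05 and from 0.168 to 1.41 CPM.

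Col4a5 and Col4a6, an X-linked pair in P. maniculatus, encode further type IV chains. In P. leucopus Col4a6 ranged from 1.06 to 2.03 CPM in young and from 1.47 to 3.81 CPM in old animals, with a log2 fold change of 0.79 ± 0.282 (adjusted p = 0.180 by edgeR). The highest values were those of old animals 4 and 6, with 3.70 and 3.81 CPM. Levels in P. maniculatus ranged from 2.66 to 5.49 CPM in young and from 1.94 to 3.75 CPM in old animals, with a log2 fold change of -0.23 ± 0.244. Col4a5 was at 6.73 ± 2.08 and 6.94 ± 2.97 CPM in young and old P. leucopus, and at 8.28 ± 1.70 and 5.68 ± 2.30 CPM in P. maniculatus (SD, n = 6). Its log2 fold change in P. maniculatus was -0.51 ± 0.251 (adjusted p = 0.467 by edgeR), with the near-identical old animals 3 and 4 lowest at 3.36 and 2.79 CPM.

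Col15a1 and Col18a1 encode the multiplexins, which carry heparan or chondroitin sulphate chains and release restin and endostatin. Col18a1 ranged from 6.89 to 34.3 CPM in young and from 8.57 to 43.8 CPM in old P. leucopus, and from 7.98 to 33.8 and from 10.8 to 25.8 CPM in P. maniculatus. The log2 fold changes were 0.20 ± 0.440 and 0.26 ± 0.315, and the former was -0.16 without old animal 4 and 1.41 ± 0.533 without the oligodendrocyte-rich young animals (adjusted p = 0.999 by edgeR). Col15a1 ranged from 6.72 to 44.7 CPM in young and from 7.03 to 17.8 CPM in old P. leucopus. It ranged in P. maniculatus from 5.65 to 9.23 and from 6.42 to 13.7 CPM, with a log2 fold change of 0.38 ± 0.220. Col7a1, the anchoring fibril collagen, was at 2.00 ± 0.385 and 2.85 ± 1.36 CPM in young and old P. leucopus.

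**Figure D3:**
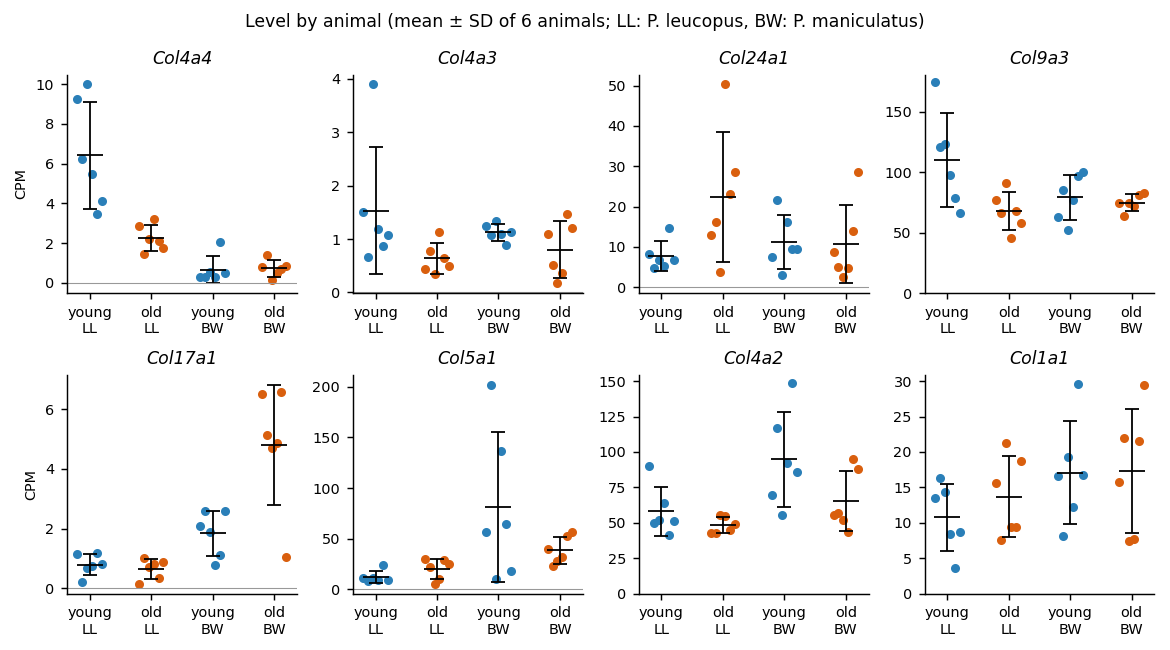
CPM of 8 collagen genes in each animal (points), with the mean and SD of the 6 animals of a group in black, for young and old P. leucopus (LL) and P. maniculatus (BW); axes differ between panels. Col4a4 separates young from old P. leucopus (3.45 to 9.99 against 1.47 to 3.24 CPM), Col24a1 is highest in 2 old P. leucopus, Col17a1 is between 4.71 and 6.59 CPM in 5 of 6 old P. maniculatus, and Col5a1 reaches 202 CPM in 1 young P. maniculatus.

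Among the type VI genes, Col6a1, Col6a2 and Col6a3, the chains of the common beaded filament, were tested. Col6a2 was the highest of them per length in both species, with 4.39 ± 1.62 and 6.37 ± 2.22 CPM per kilobase (SD, n = 12). Its level was 25.4 ± 9.26 CPM in young and 20.4 ± 7.48 CPM in old P. leucopus, and 18.5 ± 6.22 and 24.6 ± 7.90 CPM in P. maniculatus. Its log2 fold changes were -0.28 ± 0.271 (0.36 without the oligodendrocyte-rich young animals) and 0.50 ± 0.281 (adjusted p = 0.477 by edgeR in P. maniculatus). Old P. maniculatus 3 and 4, the near-identical libraries, were highest with 37.9 and 30.0 CPM. Col6a2 and Col6a1, which lie on the same strand 84998 and 93827 bases apart, were weakly correlated. Across animals r was 0.214 for P. leucopus and -0.250 for P. maniculatus. The ratio of Col6a2 to Col6a1 per length ran from 0.914 to 7.85 in the former and from 1.98 to 14.7 in the latter. Col6a3 had log2 fold changes of 0.83 ± 0.579 and -0.42 ± 0.346, and the former was -0.17 without the oligodendrocyte-rich young animals. Col6a5 and Col6a6 were at most 9.33 and 2.25 CPM in any animal, and Col6a4 at most 1.22 CPM.

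The FACIT class includes Col9a3, first in level per length in both species. In P. leucopus, Col9a3 was at 174, 121, 124, 97.8, 78.9 and 66.1 CPM in young animals 1 to 6 and at 77.1, 66.3, 90.8, 45.4, 68.2 and 58.4 CPM in old animals. The 4 young animals rich in oligodendrocyte markers were above every old animal, while young animals 5 and 6 lay within the old range. Its log2 fold change was -0.66 ± 0.216 (adjusted p = 0.154 by edgeR), and it was -0.13 (adjusted p = 0.999) without those 4 animals. In P. maniculatus, where oligodendrocyte markers summed to 1336 to 5724 CPM in young and 2111 to 4265 CPM in old animals, Col9a3 varied less than any other collagen, 1.91-fold between the highest and the lowest animal. It ranged from 52.4 to 100 CPM in young and from 64.0 to 83.1 CPM in old animals, with a log2 fold change of -0.02 ± 0.152.

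Col9a2 followed Col9a3 in part, with r = 0.615 in P. leucopus and 0.511 in P. maniculatus. It ranged from 35.4 to 107 CPM in young and from 11.4 to 66.8 CPM in old P. leucopus, and from 10.3 to 53.6 and from 14.6 to 25.6 CPM in P. maniculatus. The groups overlapped in both species, and the log2 fold changes were -0.70 ± 0.376 (adjusted p = 0.334 by edgeR) and -0.28 ± 0.342. Without the 4 young P. leucopus rich in oligodendrocyte markers, the former was -0.13.

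Of the other FACIT genes, Col16a1 was the highest. It ranged from 15.5 to 37.6 CPM in young and from 9.20 to 41.5 CPM in old P. leucopus, and from 11.1 to 85.9 and from 28.1 to 66.1 CPM in P. maniculatus. Col12a1 and Col14a1, which bind type I fibrils, had log2 fold changes of 0.44 ± 0.243 and 0.61 ± 0.334 in P. leucopus and of -0.38 ± 0.297 and 0.03 ± 0.438 in P. maniculatus. Col20a1, listed for P. leucopus alone, was at 0.183 to 1.32 CPM in young animals. In the old animals it was at 4.47 and 5.57 CPM in animals 4 and 6, the cerebellar-rich ones, and at 0.463 to 1.10 CPM in the other 4. Its log2 fold change of 1.64 ± 0.639 (adjusted p = 0.204 by edgeR) was 0.17 ± 0.482 without the 3 animals over 50 CPM of cerebellar markers. Col22a1, a collagen of tissue junctions, was at 2.75 ± 2.00 and 2.31 ± 1.21 CPM in young and old P. maniculatus.

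Of the short-chain collagens, Col8a1 and Col8a2 form the hexagonal network of Descemet's membrane. Col8a2 was at 46.6 CPM in young P. leucopus 3 and at 28.7 and 12.01 CPM in old animals 4 and 6, and between 2.20 and 9.03 CPM in the other 9. These 3 animals are the P. leucopus over 50 CPM of cerebellar markers, and the first also had the most choroid plexus markers. In P. maniculatus the highest level, 7.07 CPM, was again that of the cerebellar-rich young animal 3.

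Among the transmembrane collagens, Col17a1 had the lowest p in P. maniculatus. It encodes collagen XVII, known as a hemidesmosome protein of skin. Its gene spans 178851165 to 178892185 on chromosome 1 of the HU_Pman_2.1 assembly. Young P. maniculatus 1 to 6 had 2.09, 2.60, 1.87, 0.782, 1.10 and 2.58 CPM, and old animals had 6.52, 5.13, 4.71, 4.86, 6.59 and 1.04 CPM. Thus 5 of 6 old animals were above every young animal, and old animal 6 was below 5 of them. The log2 fold change was 1.44 ± 0.396 (adjusted p = 0.467 by edgeR). The exact permutation test of the mean CPM gave an unadjusted p of 0.0130 and an adjusted p of 0.538. The smallest p that test can give is 0.00216, so its adjusted p was bound to be high unless many genes reached that limit. Without old animal 6 the log2 fold change was 1.65 (adjusted p = 0.334 by edgeR).

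Choroid plexus markers were read beside Col17a1 after its values were seen. They summed to 4707, 2654, 2277, 2267, 3788 and 612 CPM in old P. maniculatus 1 to 6 and to 941, 1911, 5451, 169, 112 and 932 CPM in the young animals. Old animal 6 was lowest of the old animals in both, and young animals 4 and 5 were lowest of the young in both, while young animal 3 had the most markers with 1.87 CPM of Col17a1. Of the 9 markers 0 had an unadjusted p under 0.05, with a median log2 fold change of 0.58. Their part in the difference was not tested. In P. leucopus Col17a1 was at most 1.18 CPM. It was at 0.677 CPM in young animal 3, which had 10205 CPM of choroid plexus markers, and its log2 fold change was -0.27 ± 0.460.

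Col25a1, a neuronal collagen whose shed part is found in amyloid plaques, was at 86.8 and 69.4 CPM in young P. leucopus 1 and 6 and between 11.8 and 26.9 CPM in the other young animals. Old P. leucopus ranged from 4.94 to 34.0 CPM. Its log2 fold change was -1.37 ± 0.522 (adjusted p = 0.198 by edgeR), and in P. maniculatus, with 5.33 to 29.7 CPM in young and 3.03 to 17.6 CPM in old animals, it was -0.50 ± 0.438. Col23a1 ranged from 17.3 to 39.8 CPM in young and from 10.4 to 29.4 CPM in old P. leucopus. Col13a1, which organises the neuromuscular junction, had log2 fold changes of 0.43 ± 0.251 and 0.05 ± 0.386. Col26a1 and Col28a1, which fall in no class above, were at most 3.89 and 2.97 CPM in any animal.

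The age effects of the species were compared in one model over 11659 genes shared by symbol, among them 37 collagens. No collagen differed between the species past an adjusted p of 0.05 by edgeR (0 of 37, percent of all genes called: 0). At an unadjusted p under 0.05, 3 collagens had a higher fold change in P. maniculatus (background 7.34%) and 3 a lower one (background 7.75%), or 16.2% of them against 15.1% of all genes. The difference was positive for 15 of 37 collagens (background 49.1%), and DESeq2 called 0 of 37 (background 0.732%). Col4a6 had the lowest p, with a difference of -1.01 ± 0.363 on the log2 scale (SE; adjusted p = 0.233), followed by Col17a1 with 1.71 ± 0.628 (adjusted p = 0.241) and Col4a4 with 1.65 ± 0.611 (adjusted p = 0.243), all by edgeR. The others were Col9a3 with 0.64, Col24a1 with -1.61 and Col5a1 with -1.80. Col4a4 rests on at most 14 counts in any P. maniculatus.

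The collagens were next compared across the 12 animals of each species, with permutation tests of 100000 resamples and Benjamini-Hochberg adjustment over the 12 relations tested in both species. Col1a1 and Col1a2 varied together in P. leucopus (r = 0.944, rho = 0.902, adjusted permutation p = 0.00012 for r), and so did Col1a1 and Col3a1 (r = 0.893, rho = 0.909, adjusted permutation p = 0.00048). In P. maniculatus the values were r = 0.731 and rho = 0.769 for Col1a2 (adjusted permutation p = 0.0138) and r = 0.781 and rho = 0.685 for Col3a1 (adjusted permutation p = 0.00466). Without the 2 animals farthest from the median of Col1a1, these 4 correlations were 0.935, 0.874, 0.948 and 0.838. Within the young and old P. leucopus taken alone r was 0.877 and 0.982 for Col1a2 and 0.880 and 0.940 for Col3a1. Within young and old P. maniculatus it was 0.743 and 0.724 for Col1a2 and 0.945 and 0.692 for Col3a1.

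Col4a2 followed Col4a1 with r = 0.894 and rho = 0.755 in P. leucopus (adjusted permutation p = 0.00762) and with r = 0.831 and rho = 0.776 in P. maniculatus (adjusted permutation p = 0.00219). In P. leucopus the size of r depended on young animal 1. It was 0.534 without the 2 farthest animals and 0.558 without young animal 1 alone (adjusted permutation p = 0.0810). The value in P. maniculatus was 0.656 without the 2 farthest. Within young and old animals r was 0.935 and 0.643 in P. leucopus and 0.761 and 0.888 in P. maniculatus. Across the types, Col4a1 and Col1a1 had r = 0.383 and rho = 0.497 in P. leucopus (adjusted permutation p = 0.247) and r = 0.615 and rho = 0.601 in P. maniculatus (adjusted permutation p = 0.0449). Without the 2 farthest animals these were 0.220 and 0.406, so that the size of the latter depended on single animals. Within young and old animals r was 0.503 and 0.659 in P. leucopus and 0.566 and 0.826 in P. maniculatus.

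The sum of Col1a1, Col1a2 and Col3a1 followed the sum of 9 leptomeningeal fibroblast markers. In P. maniculatus r was 0.838 and rho 0.811 (adjusted permutation p = 0.00219), with 0.734 without the 2 animals farthest in marker level and 0.785 and 0.888 within young and old animals. In P. leucopus r was 0.698 and rho 0.797 (adjusted permutation p = 0.0201), with 0.560 without the 2 farthest and 0.909 and 0.454 within young and old animals. The relation in P. leucopus thus did not hold within the old animals by itself or without the 2 farthest. Of the 9 markers 4 were higher in old P. leucopus at an unadjusted p under 0.05. The sum of Col4a1 and Col4a2 had r = 0.287 and rho = 0.587 with endothelial markers in P. leucopus (adjusted permutation p = 0.406) and r = 0.469 and rho = 0.385 in P. maniculatus (adjusted permutation p = 0.149). Without the 2 farthest these were 0.396 and 0.554, and within young and old animals -0.02 and 0.824 in P. leucopus and 0.530 and 0.528 in P. maniculatus. Without young P. leucopus 1 the value in P. leucopus was 0.781 (adjusted permutation p = 0.0117).

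**Figure D4:**
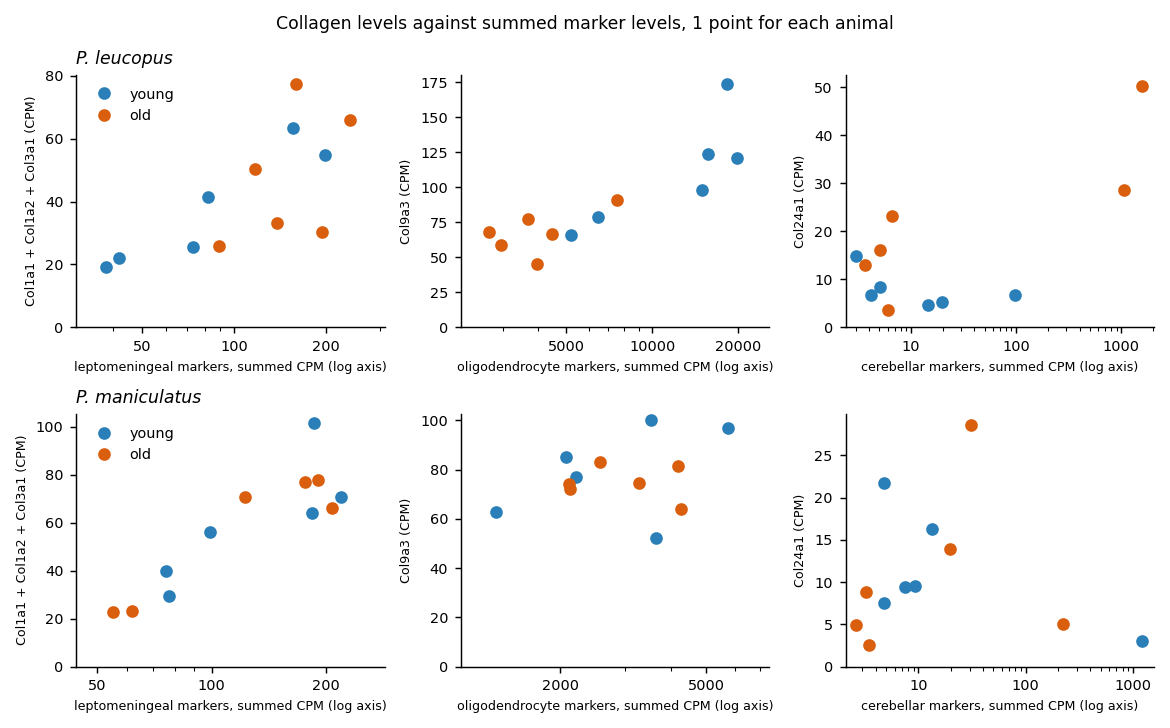
Collagen levels against summed marker levels (log axis) with 1 point for each animal, in P. leucopus (top) and P. maniculatus (bottom); blue is young and orange old. The sum of Col1a1, Col1a2 and Col3a1 increases with leptomeningeal markers in both species (r = 0.698 and 0.838), Col9a3 is highest in the 4 young P. leucopus over 10000 CPM of oligodendrocyte markers, and Col24a1 is highest in the 2 old P. leucopus with over 1000 CPM of cerebellar markers but not in the P. maniculatus rich in them.

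Over all pairs of tested collagens the median r was 0.109 in P. leucopus (666 pairs, 407 positive) and 0.215 in P. maniculatus (561 pairs, 385 positive). Within the fibrillar class it was 0.143 and 0.440. Sets of genes that varied together in P. maniculatus, one of them holding the FACIT gene Col16a1 and the type VI gene Col6a3 beside fibrillar genes, were picked after the matrix was seen and are described without a test. Col1a1, Col1a2, Col3a1 and Col5a2 had a median r of 0.755, and Col5a1, Col11a1, Col11a2, Col16a1 and Col6a3 one of 0.672, with all 10 pairs positive, while pairs between these sets had a median of -0.293. In P. leucopus the first set again varied together (median 0.631), but the second did not (median 0.136), and Col5a1 with Col11a1 had r = -0.310 there against 0.840 in P. maniculatus. All values share the same 12 animals of a species, and differences in tissue sampled between libraries enter every pair.

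**Figure D5:**
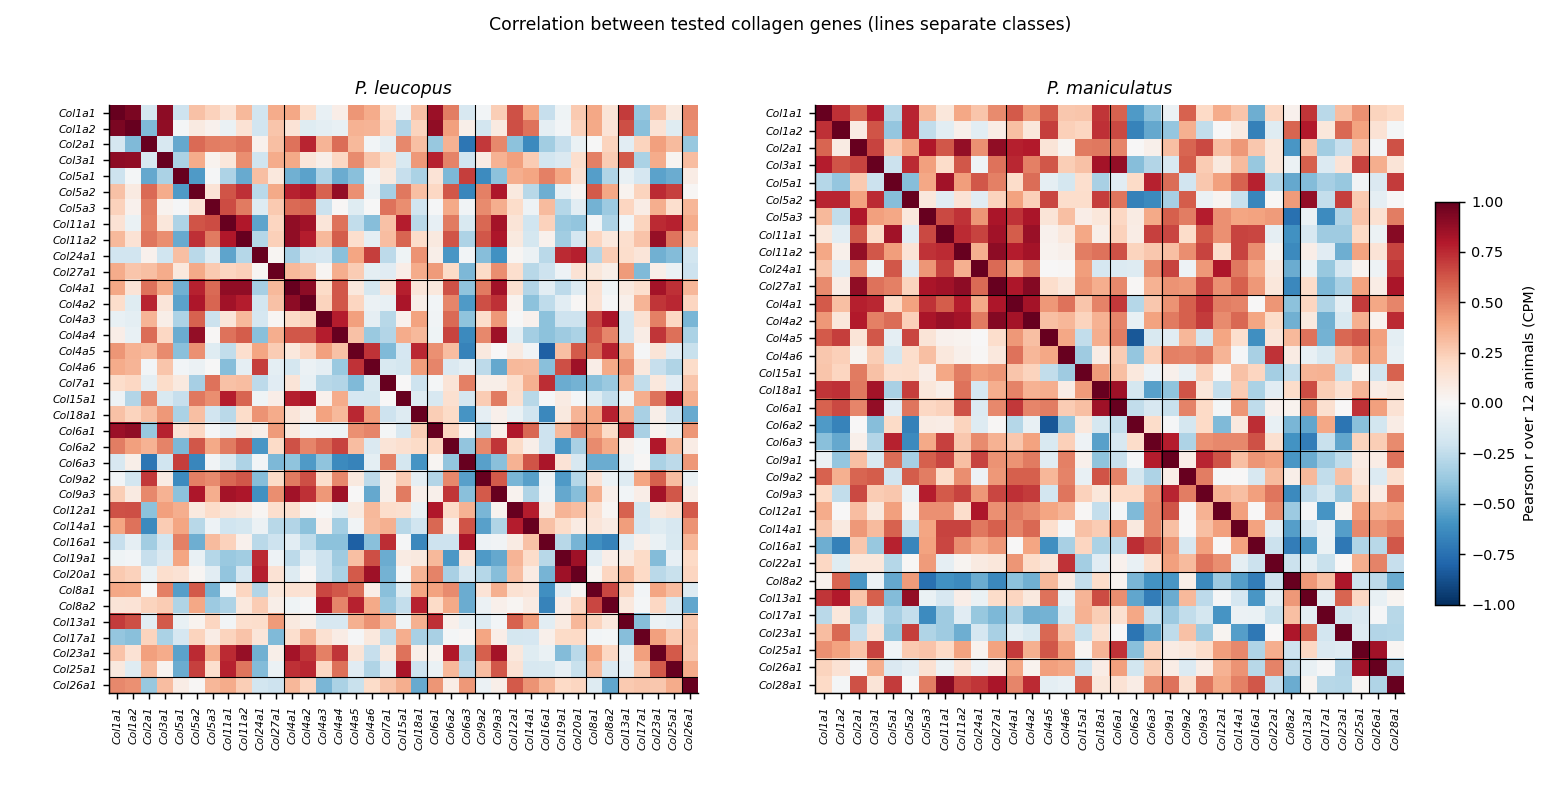
Pearson correlation between tested collagen genes over the 12 animals of P. leucopus (left) and P. maniculatus (right), red for positive and blue for negative values, with black lines between classes. The block of Col1a1, Col1a2 and Col3a1 is red in both species (r of Col1a1 with Col1a2 of 0.944 and 0.731), whereas Col5a1 is negative with Col11a1 in P. leucopus (-0.310) and positive in P. maniculatus (0.840).

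The study's own measure is Pc, the correlation, across all transcripts, between the correlation coefficients of a gene with every transcript in young and in old animals. A positive Pc means that the gene kept its pattern of correlation. The median Pc of the collagens was 0.0928 ± 0.103 (jackknife standard error over 12 animals) in P. leucopus and 0.0714 ± 0.0806 in P. maniculatus. Over all transcripts the medians were 0.150 and 0.160. The collagen median of P. maniculatus was higher, between 0.101 and 0.119, in each of the 4 other settings tried for it (log2(CPM + 1), TMM-scaled CPM, Spearman correlation and summed near-identical libraries). Pc was positive for 30 of 42 collagens in P. leucopus (71.4%, against 72.5% of 19718 transcripts) and for 29 of 41 in P. maniculatus (70.7%, against 76.7% of 15262). The difference was not tested.

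Many single collagens had Pc values smaller than their jackknife errors, whereas the highest and lowest values of each species exceeded theirs. In P. leucopus Col5a2 was highest with 0.4005 ± 0.129 and Col27a1 lowest with -0.327 ± 0.148. In P. maniculatus Col4a5 was highest with 0.443 ± 0.220 and Col14a1 lowest with -0.402 ± 0.228. Col4a2 had 0.344 ± 0.170 in P. leucopus and -0.262 ± 0.154 in P. maniculatus. By class the median was highest in P. leucopus for the short-chain (0.271, 3 genes) and basement membrane collagens (0.259, 9 genes) and lowest for the transmembrane ones (-0.03, 4 genes). In P. maniculatus it ran from 0.00470 (the 2 genes in no class) to 0.197 (3 short-chain genes).

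Finally, 72 genes that make, cross-link, degrade or bind collagen were read in the same fits. None passed the adjusted threshold by edgeR among 64 tested in P. leucopus or 60 tested in P. maniculatus. At an unadjusted p under 0.05, 7 were higher and 11 lower in old P. leucopus, and 4 higher and 0 lower in old P. maniculatus. These are 10.9% and 17.2% of the tested pathway genes of P. leucopus, beside 8.32% and 10.4% of all tested genes, and 6.67% and 0% of those of P. maniculatus, beside 4.94% and 5.39%. Among the 17 tested genes of synthesis and folding in P. leucopus, 1 was higher and 3 lower. Among the 7 tested genes of degradation, which include metalloproteinases and their inhibitors, 2 were higher and 4 lower. Among the 14 tested basement membrane partners, such as laminins and nidogens, 1 was lower.

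The pathway genes with the lowest p in P. leucopus were Tll2, a tolloid protease of the family that removes procollagen propeptides, Fmod (fibromodulin, which binds collagen fibrils) and Ctsk (cathepsin K, which degrades collagen). Tll2 was at 5.49 to 13.7 CPM in young and 1.46 to 5.30 CPM in old animals, with a log2 fold change of -1.58 ± 0.325 (adjusted p = 0.101 by edgeR). Fmod was at 3.01 to 9.19 and 4.37 to 20.3 CPM, with 1.41 ± 0.368 (adjusted p = 0.117 by edgeR), and Ctsk at 16.5 to 19.8 and 19.5 to 33.4 CPM, with 0.54 ± 0.142 (adjusted p = 0.120 by edgeR). The age groups did not overlap for Tll2 (beside 0.479% of all tested genes that were lower without overlap) and overlapped slightly for Ctsk. They also overlapped for Fmod, whose means were 5.74 ± 2.29 CPM in young and 15.1 ± 5.77 CPM in old animals (SD). Pathway genes were not read in the fits without oligodendrocyte-rich or cerebellar-rich animals. In P. maniculatus they were Lair1, an inhibitory collagen receptor of immune cells, with 0.95 ± 0.291, Postn (periostin) with 1.19 ± 0.377 and Mrc2, an endocytic collagen receptor, with 0.48 ± 0.156, each with an adjusted p of 0.467 by edgeR.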

How the data were processed

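Brain RNA of 24 deer mice was sequenced, 6 animals to each stock and age. The authors trimmed reads with Trim Galore 0.4.5, aligned them with STAR 2.7.2b and counted them with featureCounts 1.5.3, per the submitters' processing notes and the file headers. The deposited values are expected counts: reads mapping to several places or overlapping several genes were divided between them, on the Pero_0.1 assembly with RefSeq genes (P. leucopus) or HU_Pman_2.1 with Ensembl release 101 genes (P. maniculatus). Strand was ignored, although the kit marks it, so overlapping antisense genes share reads. A row that pooled unnamed genes (13.1% of P. maniculatus counts) was left out. Sequences were not used here.

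Counts were rounded and fitted with edgeR 4.0.16 in R 4.3.3 on all named genes that passed filterByExpr, with TMM scaling, the quasi-likelihood test, Benjamini-Hochberg adjustment and a threshold of 0.05. DESeq2 1.42.0, exact permutation tests of mean CPM, RLE and total-count scaling, no filter, log2(CPM + 1), TMM-scaled CPM, Spearman correlation for Pc, summed near-identical libraries and each animal left out were alternatives. In simulated data the edgeR test recovered 49.5% (P. leucopus), 60.5% (P. maniculatus) and 36.5% (difference between the species) of 200 genes changed 2-fold. Correlations and Pc were computed in Python 3.11.15 with SciPy 1.17.1. Values by animal or range were given for Col1a1, Col1a2, Col3a1, Col4a1, Col4a2 and Col18a1, the 6 lowest p of a species, the 3 lowest of the difference and the 5 highest levels per length; those of Col5a2, Col8a2, Col20a1 and the less abundant members were added after the values were seen. Pathway genes were named if among the 3 lowest p. The members and lists were chosen with earlier results of these data known, and fits without cerebellar-rich or oligodendrocyte-rich animals were chosen after seeing the data. P-values refer to the variation between these animals. In P. maniculatus they count the near-identical old libraries as 2 animals, except where these were summed. Counting error is large for genes with few counts.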

Additional observations from a re-analysis of the deposited data

Results flagged for a closer look

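Among 56 groups of 6 animals, 5 held an animal whose distance from its nearest neighbour took up an unusually large share of the range (Dixon's 95% limit for 6 values, which chance passes in about 1 of 20 groups). Col4a1 was at 64.0 CPM in young P. leucopus 1, where the next animal had 39.5 CPM. Without this animal r between Col4a1 and Col4a2 in that species was 0.558, against 0.894 with all animals. Col18a1 was at 43.8 CPM in old P. leucopus 4, where the next had 18.3 CPM and where cerebellar markers summed to 1567 CPM. Col24a1 was at 14.7 CPM in young P. leucopus 5, above 8.31 CPM in the next. Col4a3 was at 3.89 CPM in young P. leucopus 3, above 1.51 CPM in the next, in the animal with the most choroid plexus markers. Col17a1 was at 1.04 CPM in old P. maniculatus 6, below 4.71 CPM in the next, in the old animal with the fewest choroid plexus markers. What sets these animals apart was not tested.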

How the results depend on the processing

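No paired analysis was possible because each animal gave 1 library and the labels tie no young animal to an old one. The count of collagens past the adjusted threshold was 0 in P. leucopus, 2 with DESeq2, and between 0 and 2 with single animals left out. The 2 were Col4a4 (adjusted p = 0.0176 by edgeR) and Col24a1 (adjusted p = 0.0484), both without young animal 5, a fit in which 963 of 14958 genes were called. In P. maniculatus and in the difference between the species the adjusted count stayed at 0. At an unadjusted p the count in P. leucopus was 8, and 3 others (Col5a3, Col18a1 and Col27a1) without the 4 young animals rich in oligodendrocyte markers. Without the 3 cerebellar-rich P. leucopus it was 7 of 37, beside 2691 of 14969 genes. Of these, Col7a1, Col12a1, Col14a1 and Col16a1 were not among the 8. In P. maniculatus the count was 2, with 1 for summed near-identical libraries (beside 5.26% of all genes) and 1 by the exact test. Without cerebellar-rich animals it was 6 of 34 (Col17a1, Col5a1, Col4a5, Col5a3, Col6a3 and Col4a2), beside 9.59% of all genes. With single animals left out it ran from 1 to 7. The 7 of 35 were without young animal 3, where 1003 of 12456 genes had such a p. The causes were not tested.

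Without the oligodendrocyte-rich animals 10 of 37 collagens of P. leucopus changed sign: Col2a1 (-0.85 to 1.24), Col8a2 (-0.38 to 1.21), Col27a1 (-0.05 to 1.25), Col6a3 (0.83 to -0.17), Col19a1 (0.60 to -0.10), Col6a2 (-0.28 to 0.36), Col11a2 (-0.28 to 0.34), Col16a1 (0.28 to -0.035), Col4a1 (-0.17 to 0.11) and Col4a2 (-0.22 to 0.039). Col16a1 in P. maniculatus turned to -0.037 with total counts, -0.085 with summed libraries, -0.045 without cerebellar-rich animals and -0.037 by the exact test. With single animals left out the log2 fold change ran from -0.067 to 0.40 for Col3a1 and from -0.16 to 0.48 for Col18a1 in P. leucopus. In P. maniculatus it ran from -0.15 to 0.27 for Col1a1 and for Col1a2, from -0.44 to 0.022 for Col3a1, from -0.44 to 0.040 for Col9a2, from -0.11 to 0.056 for Col9a3 and from -0.17 to 0.29 for Col16a1.

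The correlation of Col4a1 with Col1a1 in P. maniculatus was 0.547 with TMM-scaled CPM (adjusted permutation p = 0.0879) and 0.539 with summed libraries (adjusted permutation p = 0.114). With single animals left out it ran from 0.437 to 0.691, and in P. leucopus from 0.293 to 0.646. In P. leucopus Col4a2 with Col4a1 ran from 0.558 to 0.927, fibrillar genes with leptomeningeal markers from 0.633 (without old animal 6) to 0.821, and type IV genes with endothelial markers from 0.184 to 0.781. The median Pc of collagens stayed positive, at 0.0550 to 0.176 in P. leucopus and 0.0148 to 0.104 in P. maniculatus with single animals left out, and at 0.0900 to 0.123 and 0.101 to 0.119 in the other alternatives.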
